A study of Mus musculus with 36 samples.

Results

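Transcripts of 10 genes that govern axon degeneration, NAD+ metabolism and dual leucine zipper kinase (DLK) signaling were followed through mouse retina and optic nerve: Sarm1, Nmnat1, Nmnat2, Nmnat3, Nampt, Map3k12, Map3k13, Mapk8, Stmn2 and Mycbp2. They were picked by symbol, and all 10 were found among the 55487 genes of the count table and had counts in each of the 36 libraries. RNA came from C57BL/6 mice of both sexes, from the unmyelinated optic nerve (UON) next to the eye, the myelinated optic nerve (MON) behind it, and the whole retina. Each tissue was taken from naïve mice, from mice at 3 D and 2 W after unilateral optic nerve crush, and from mice at 3 D, 2 W and 6 W after unilateral injection of microbeads into the anterior chamber, the model called glaucoma below. The 3 tissues came from the same mice, and every group was 1 female pool and 1 male pool with the RNA of 2 mice each, so n = 2 pools and sex and pool cannot be told apart. The mice carried no transgene or deletion.

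SARM1 is an enzyme of the axon that destroys NAD+ once it is activated and so drives the self-destruction of a cut axon. NMNAT2, which neurons carry down the axon and which decays quickly after injury, makes NAD+ and holds SARM1 inactive, while MYCBP2 (PHR1) is the ubiquitin ligase that removes NMNAT2. DLK and its relative LZK signal axon injury back to the RGC body through JNK kinases, whose targets include both death and regrowth genes, and DLK signaling is best known in this tissue for its role in RGC death after crush. In bulk tissue, RNA in the retina comes from RGCs and all other retinal cells, whereas the nerve holds RGC axons but the bodies of glia and other support cells.

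Total estimated counts per library ranged from 16.2 M to 78.1 M. In naïve tissue all 8 oligodendrocyte markers were called higher in MON than in UON or retina, all 11 photoreceptor markers were called higher in retina than in either nerve region, and the RGC transcription factors Pou4f1, Pou4f2 and Pou4f3 were at 0 in at least 1 library of both nerve regions. No pair of libraries held identical counts. The male UON pool at 2 W after crush stood apart from the other UON libraries, with a summed oligodendrocyte marker level of 3215 CPM (counts scaled to the normalized library total) against 9724 to 41948 CPM in the other 11. It also held the highest UON sums of pigment epithelium and melanocyte markers (58.0 CPM, against at most 16.6 CPM elsewhere), skeletal muscle markers (29.6 CPM, against at most 9.91 CPM) and fibroblast markers (4050 CPM, against at most 3796 CPM). The same pool held the lowest UON levels of Sarm1 (1.72 CPM), Nmnat2 (2.51 CPM) and Mycbp2 (50.6 CPM) and the highest of Stmn2 (22.6 CPM) and Nampt (100.4 CPM), and the part of these markers in those levels was not tested. The effect of leaving it out is given below for Stmn2 between crush and glaucoma in UON and for Mapk8ip2. The other UON values at 2 W after crush include this pool.

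In naïve tissue the 10 genes were compared by level per transcript length (FPKM). Stmn2 led in the retina with a mean of 42.8 FPKM, followed by Sarm1 (24.0 FPKM) and Mycbp2 (20.4 FPKM), whose pools overlapped. Map3k12 (12.7 FPKM), Mapk8 (9.67 FPKM), Nampt (6.96 FPKM) and Nmnat2 (6.12 FPKM) came next, and Nmnat1 (4.63 FPKM), Nmnat3 (3.88 FPKM) and Map3k13 (3.77 FPKM) were lowest. Pools of neighbors in this order overlapped for Nampt and Nmnat2 and for Nmnat3 and Map3k13. Both nerve regions had another order. Nampt led in UON (16.4 FPKM) and in MON (11.9 FPKM), ahead of Mycbp2 (11.2 and 11.6 FPKM) and Map3k12 (7.55 and 6.25 FPKM). Sarm1 was at 1.67 FPKM in UON and at 4.79 FPKM in MON, and Map3k13 was lowest in both (0.659 and 1.23 FPKM). Nampt and Mycbp2 overlapped in MON, as did Map3k12 and Sarm1, and in UON the 5 lowest genes overlapped from each to the next (Stmn2, Sarm1, Nmnat2, Mapk8 and Map3k13).

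**Figure D1:**
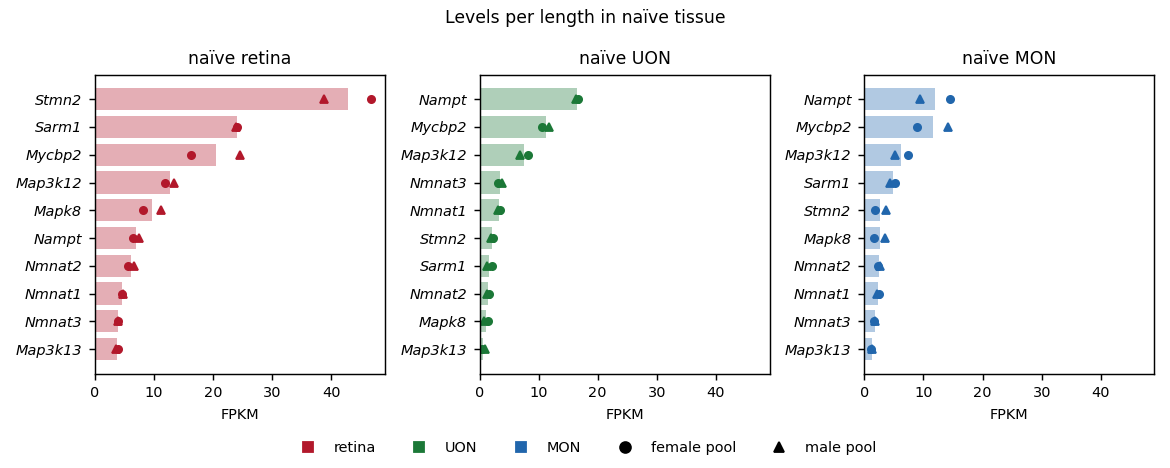
Level of the 10 genes in naïve retina, UON and MON in FPKM on a linear axis. Bars are means, circles female pools and triangles male pools, with genes ordered by mean within each tissue. Stmn2 leads in the retina at 42.8 FPKM, and Nampt leads in both nerve regions.

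Sarm1 (ENSMUSG00000050132, chr11:78472330-78497754 of GRCm38, minus strand), the NAD+ hydrolase itself, separated all 3 naïve tissues. Its level was 78.3 CPM in the female and 82.3 CPM in the male retina pool, 28.6 and 18.7 CPM in MON, and 5.77 and 4.59 CPM in UON. The tissues did not overlap, and UON was lowest. Sarm1 was lower in UON than in MON by 2.2 on the log2 scale (SE 0.25, edgeR quasi-likelihood test with Benjamini-Hochberg adjustment over all genes, adjusted p = 0.00320), the only one of the 10 genes called in that comparison. Calls required an adjusted p below 0.05 together with a log2 fold change beyond 1, and 9.63% of the 23685 genes tested were called between UON and MON. Against the retina, Sarm1 was lower in UON (log2 fold change -3.93, SE 0.27, adjusted p = 5.98e-05) and in MON (-1.73, SE 0.25, adjusted p = 0.00174). The summed RGC markers had the same order as Sarm1, with 1433 and 1324 CPM in the female and male retina pools, 589 and 480 CPM in MON and 222 and 283 CPM in UON. So had 12 summed markers of other retinal neurons, with 1179 and 1076 CPM in retina, 324 and 147 CPM in MON and 103 and 86.3 CPM in UON. All 8 oligodendrocyte genes also moved with Sarm1 between UON (summed level 28205 and 21672 CPM) and MON (165311 and 120854 CPM), but not into the retina (112 and 102 CPM). The part of any of these lists in the Sarm1 differences was not tested. These 3 regional comparisons share the 6 naïve libraries, and in bulk tissue fewer cells of a type and less RNA per cell cannot be told apart.

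The NAD+ synthesis genes split by region. Nampt (chr12:32819545-32853349, plus strand), the rate-limiting enzyme that makes NMN from nicotinamide, was at 29.1 and 33.0 CPM in naïve retina, 89.9 and 51.4 CPM in MON, and 89.0 and 85.9 CPM in UON. Every nerve pool was above every retina pool, and Nampt was higher in UON (log2 fold change 1.53, SE 0.26, edgeR adjusted p = 0.00389) and in MON (1.21, SE 0.26, adjusted p = 0.0120) than in retina. The MON call was lost without the female MON pool (0.80, adjusted p = 0.0410) or the female retina pool (0.92, adjusted p = 0.105). Nmnat2 (chr1:152954993-153119261, plus strand), the axonal NMN adenylyltransferase, ran the other way with 25.2 and 29.4 CPM in retina, 15.1 and 12.6 CPM in MON and 9.16 and 7.32 CPM in UON. The tissues did not overlap, and the difference was called for UON against retina (-1.70, SE 0.30, adjusted p = 0.00420) but not for MON against retina (-0.92, adjusted p = 0.0519). Nmnat1 (chr4:149467572-149485202, minus strand), the nuclear form, and Nmnat3 (chr9:98287435-98420438, plus strand), the mitochondrial form, were low in all 3 tissues. Nmnat1 had 5.63 and 5.11 CPM in UON, 5.03 and 3.30 CPM in MON, and 7.53 and 5.88 CPM in retina. Nmnat3 had 8.09 and 10.1 CPM in UON, 4.53 and 5.01 CPM in MON, and 8.29 and 7.08 CPM in retina. Both UON pools of Nmnat3 were above both MON pools (log2 difference 0.90), but neither gene was called in any regional comparison by edgeR.

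The kinases of the DLK route were all higher in naïve retina than in either nerve region, and Map3k12 was the only one of them never called. Map3k13 (LZK, chr16:21794346-21933439, plus strand) was at 33.6 and 30.7 CPM in naïve retina, 13.1 and 14.2 CPM in MON, and 4.52 and 9.96 CPM in UON. It was called lower than in retina in UON (log2 fold change -2.20, SE 0.38, edgeR adjusted p = 0.00369) and in MON (-1.19, SE 0.36, adjusted p = 0.0447). The MON call of Map3k13 was lost without the female MON pool (-1.35, adjusted p = 0.106), the male MON pool (-1.01, adjusted p = 0.172) or the female retina pool (-0.76, adjusted p = 0.399). Mapk8 (JNK1, chr14:33377898-33447158, minus strand) was at 26.5 and 41.3 CPM in retina, 9.20 and 17.8 CPM in MON, and 4.41 and 2.45 CPM in UON. No tissues overlapped for Mapk8 or Map3k13. Mapk8 was called for UON against retina (-3.19, SE 0.50, adjusted p = 0.00256), whereas its difference between UON and MON (-1.92, SE 0.49) had an adjusted p of 0.0534 and that between MON and retina (-1.27) one of 0.0809. In fits without 1 library the UON and MON difference of Mapk8 ranged from -2.84 to -1.13. That between MON and retina ranged from -1.86 to -0.80. Map3k12 (DLK itself, chr15:102497646-102517064, minus strand) was at 48.9 and 57.0 CPM in retina, 40.5 and 30.1 CPM in MON, and 35.6 and 33.5 CPM in UON. Both its retina pools were above all nerve pools, but it was called in no regional comparison. Of the exon bases of Map3k12, 17.5% (1573 of 8989) overlap exons of Pcbp2 on the opposite strand. Pcbp2, an RNA-binding protein gene, had medians of 299 CPM in retina, 77.2 CPM in UON and 63.9 CPM in MON. Since no source used here states that counting used strand, reads of Map3k12 and Pcbp2 cannot be told apart over that stretch.

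Stmn2 (SCG10, chr3:8509360-8561606, plus strand), a microtubule-binding protein of growing axons that turns over with NMNAT2, had 88.6 and 79.4 CPM in naïve retina against 5.30 and 8.30 CPM in MON and 6.12 and 4.90 CPM in UON. The retina stood far above both nerve regions, which overlapped each other, and Stmn2 was lower than in retina in UON (log2 fold change -3.89, SE 0.34, edgeR adjusted p = 0.00016) and MON (-3.58, SE 0.34, adjusted p = 0.000264). The summed level of the 12 RGC markers moved the same way, from 1324 and 1433 CPM in naïve retina to 480 and 589 CPM in MON. That of 12 markers of other retinal neurons did too, from 1076 and 1179 CPM to 147 and 324 CPM. The part of either sum in the Stmn2 difference was not tested. Mycbp2 (chr14:103113411-103346814, minus strand), the ligase, was at 124 and 146 CPM in retina, 138 and 148 CPM in MON, and 109 and 101 CPM in UON, and was not called in any pair. In all, 6 of the 10 genes were called between UON and retina, where 31.7% of all genes tested were called, and 4 of 10 between MON and retina, where the share was 27.6%. The median log2 difference of the 10 genes was -0.39 for UON minus MON, -1.14 for UON minus retina and -0.78 for MON minus retina, against -0.06, -0.17 and 0.00 for all genes tested.

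**Figure D2:**
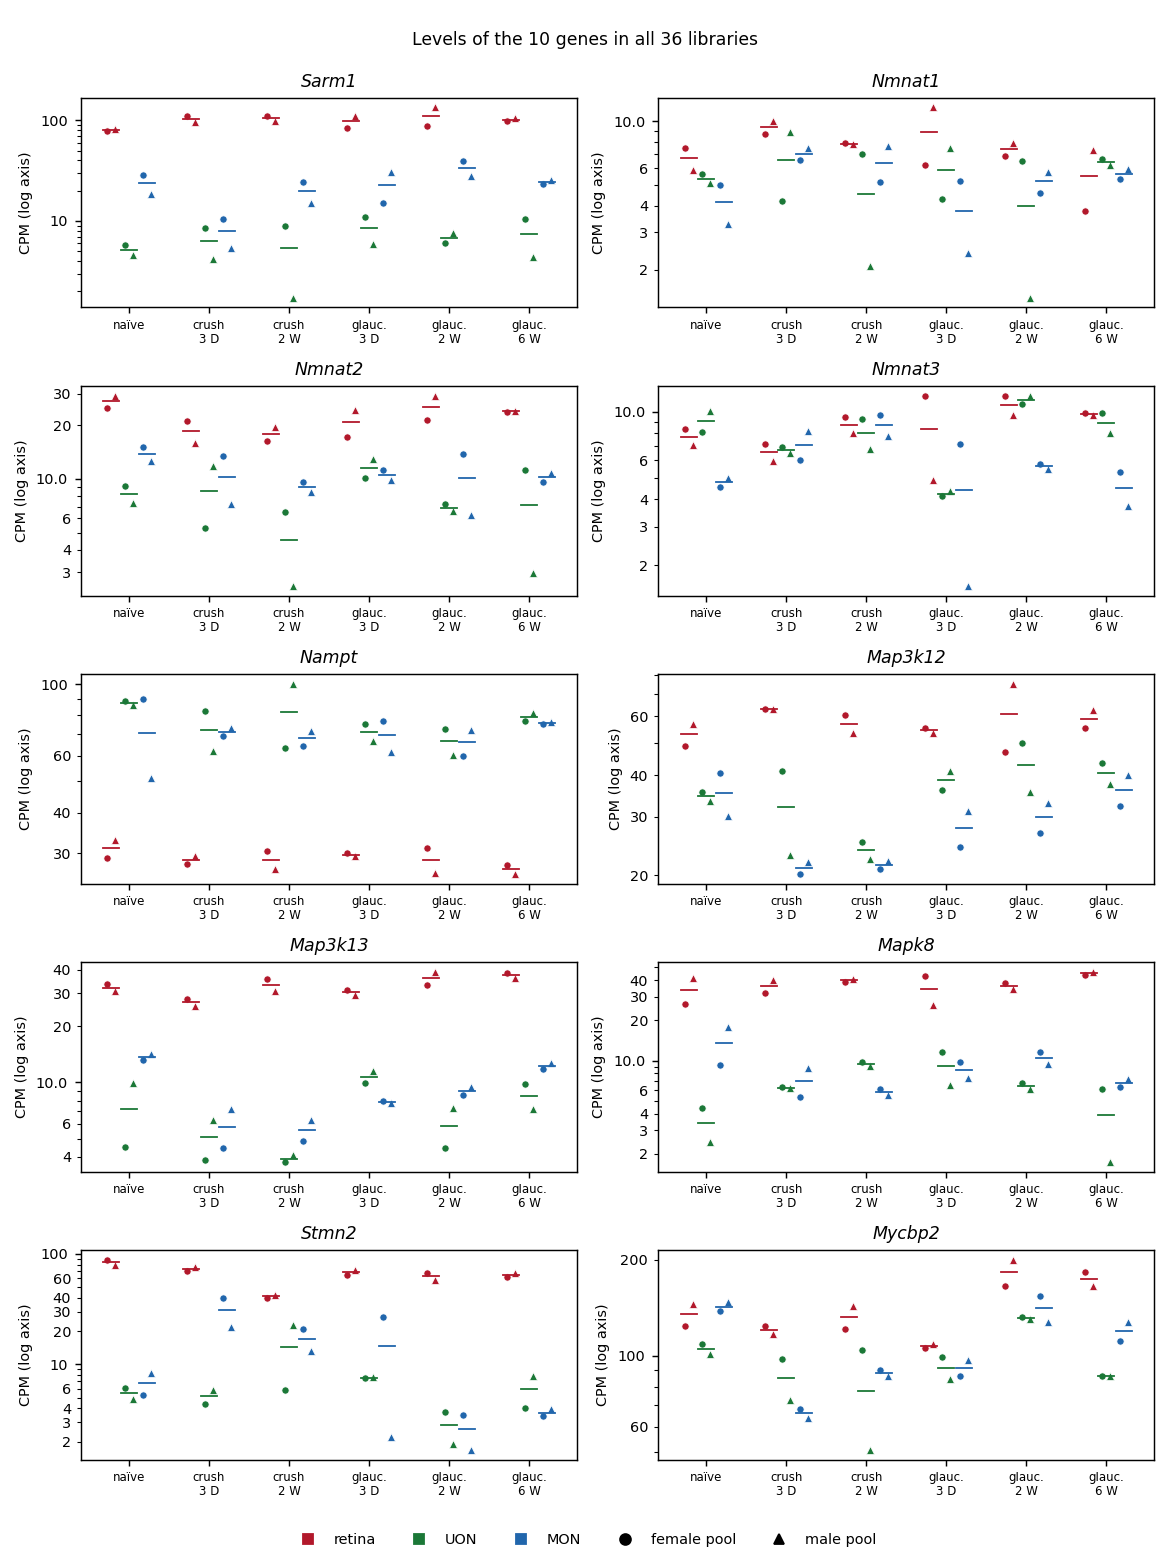
Level of each of the 10 genes in all 36 libraries, in CPM on a log axis, by treatment and time. Red is retina, green UON and blue MON, circles are female and triangles male pools, and short bars are group means. Sarm1, Nmnat2, Mapk8 and Map3k13 sit higher in every retina library than in any nerve library, and Nampt sits lower. Stmn2 sits higher in the retina too, but in MON it rises at 3 D after crush. There its female pool (40.1 CPM) lies above the lowest retina pool (39.5 CPM).

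Against these regional differences, few members were called after injury, and smaller shares of all genes too. With 2 pools per group, the lack of a call does not show that a gene stayed unchanged. The 10 genes were each tested in 15 comparisons of an injured group with naïve tissue, in which each tissue's comparisons share its 2 naïve libraries. Of these 150 tests 2 passed, both for Stmn2 after crush and in opposite directions, and 22 had an unadjusted p below 0.05. Of all genes edgeR called 4.26% and 2.72% in MON at 3 D and 2 W after crush and at most 0.313% elsewhere. All genes with an unadjusted p below 0.05 ran from 451 of 22438 (UON, 6 W of glaucoma) to 4195 of 19988 (MON, 3 D after crush). DESeq2 called 4 of the 150. Of these, 1 was in the retina at 2 W after crush, where DESeq2 called 346 of all genes. The other 3 were in MON at 3 D after crush, where it called 2386. Of the 13 marker lists, the dividing-cell, microglia and macrophage, neutrophil and monocyte, oligodendrocyte and RGC lists had genes called by edgeR after crush, in MON or retina. By edgeR no marker was called in UON or in glaucoma, where it called at most 6 of all genes tested against naïve. Sums of markers differed there too. In UON the dividing-cell sum was 6.40 to 13.9 CPM in naïve pools, 218 to 500 CPM at 3 D after crush and 146 to 165 CPM at 3 D of glaucoma. The UON microglia and macrophage sum was 771 to 929 CPM in naïve pools and 1755 to 2823 CPM at 2 W after crush, and the RGC sum was 222 to 283 CPM in naïve pools, 97.7 to 122 CPM at 2 W after crush and 98 to 147 CPM at 2 W of glaucoma. Their part in the UON values of the 10 genes was not tested.

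In the retina Stmn2 fell late after crush. It was at 88.6 and 79.4 CPM in the naïve female and male pools, 69.9 and 76.7 CPM at 3 D and 39.5 and 42.9 CPM at 2 W. The 2 W pools were below all other retina pools of the series, and the 3 D pools lay just below the naïve ones. The change at 2 W was -1.07 on the log2 scale (SE 0.14, edgeR adjusted p = 0.0475), the only call among the 10 genes in a comparison where 0.313% of 22671 genes were called. At 3 D it was -0.20 (SE 0.13), with 0.0221% of genes called. The RGC markers moved with it: their summed level was 1433 and 1324 CPM in naïve retina, 815 and 858 CPM at 3 D and 290 and 257 CPM at 2 W, and 8 of the 12 were called lower at 2 W. Their part in the Stmn2 result was not tested. The Stmn2 call was close to its threshold: it was lost without the female 2 W pool (-0.96, adjusted p = 0.114) and without the female naïve pool (-0.91, adjusted p = 0.146).

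**Figure D3:**
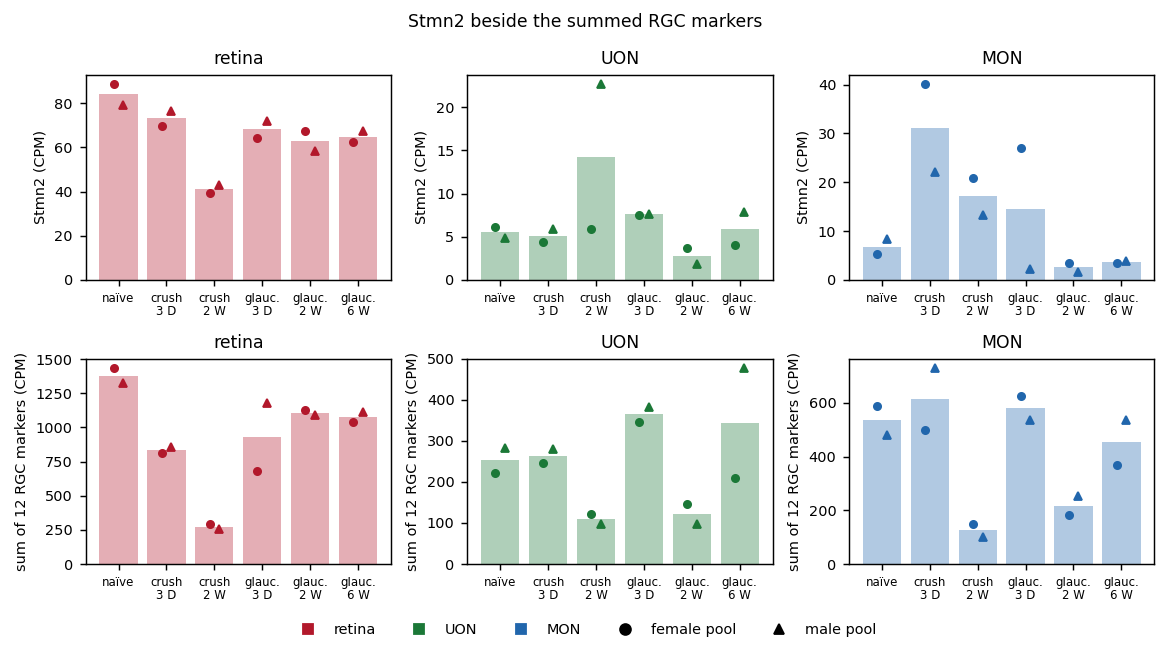
Stmn2 (top) and the sum of 12 RGC marker genes (bottom) in CPM in retina, UON and MON, on linear axes from 0 that differ between panels. Bars are means of 2 pools, circles female and triangles male pools. In the retina both are lowest at 2 W after crush, while in MON Stmn2 is highest at 3 D after crush and the RGC sum is lowest at 2 W.

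In MON Stmn2 rose early after crush. It was at 5.30 and 8.30 CPM in the naïve pools, 40.1 and 22 CPM at 3 D and 20.8 and 13.3 CPM at 2 W. All 4 crush pools were above both naïve pools. The rise was called at 3 D (log2 fold change 2.22, SE 0.48, edgeR adjusted p = 0.0485), where 4.26% of 19988 genes were called, but not at 2 W (1.35, SE 0.47, adjusted p = 0.202), where 2.72% were. In fits without 1 library the 2 W difference shrank to 0.66 without the female naïve pool and was 2.21 without the male one. Without the female naïve pool the 3 D change was 1.5 (adjusted p = 0.199) and the call was lost, while it held without each of the other 5 libraries of that fit. Other markers moved in the same pools, and their part in the Stmn2 rise was not tested. The summed level of 4 genes of dividing cells rose from 9.0 and 6.5 CPM in naïve MON to 306 and 396 CPM at 3 D, with all 4 called. Summed microglia and macrophage markers were at 1366 and 1458 CPM in naïve MON and 3082 and 4117 CPM at 3 D, with 1 of 8 called. The summed RGC markers were at 589 and 480 CPM in naïve MON and 500 and 728 CPM at 3 D, with none of the 8 tested called, and fell to 148 and 102 CPM at 2 W.

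Sarm1 in MON ran opposite to Stmn2 but did not pass. It was at 28.6 and 18.7 CPM in naïve MON, 10.5 and 5.37 CPM at 3 D after crush and 24.2 and 15.1 CPM at 2 W. Both 3 D pools were below every other MON pool of the series. The difference at 3 D was -1.52 on the log2 scale (SE 0.33, edgeR adjusted p = 0.0516), just past the threshold, and DESeq2 called it (-1.56, adjusted p = 0.00252). The 6 fits without 1 library ranged from -1.73 to -1.33, with -1.51 without either 2 W pool. The 2 W pools are not part of this difference and enter it only through what the fit shares. Such fits leave 1 pool in a group, and their calls are not read as a result on Sarm1. The summed oligodendrocyte markers were at 165311 and 120854 CPM in naïve MON and 82969 and 73236 CPM at 3 D, and their part in the difference was not tested. In the retina Sarm1 was above naïve (78.3 and 82.3 CPM) in all 10 injured pools, from 83.8 to 134 CPM, with log2 differences of 0.26 to 0.41 and no call. At 2 W after crush its retina pools were at 111 and 97.8 CPM, while the summed RGC markers were at 290 and 257 CPM. In naïve retina that sum was 1433 and 1324 CPM, and its part in the Sarm1 values was not tested. Mycbp2 was at 138 and 148 CPM in naïve MON, 68.2 and 64.0 CPM at 3 D after crush and 90.3 and 86.2 CPM at 2 W. The 4 crush pools did not overlap the naïve pools. The 3 D difference of -1.02 (SE 0.26) had an edgeR adjusted p of 0.0794, while DESeq2 called it (-1.06, adjusted p = 0.0108). The 6 fits without 1 library ranged from -1.16 to -0.87.

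The DLK route kinases were not called after crush in any tissue by edgeR within each tissue, nor by DESeq2. In MON, Map3k13 was at 13.1 and 14.2 CPM in naïve pools, 4.46 and 7.17 CPM at 3 D and 4.87 and 6.30 CPM at 2 W. Both times lay below naïve without overlap, by -1.17 (SE 0.40, edgeR adjusted p = 0.149) and -1.21 (SE 0.40, adjusted p = 0.178) on the log2 scale. With all 36 libraries in one edgeR fit both differences of Map3k13 were called (-1.24 at each time, adjusted p = 0.0225 and 0.0345). Map3k12 in MON was at 40.5 and 30.1 CPM in naïve pools, 20.2 and 21.9 CPM at 3 D and 20.8 and 22.1 CPM at 2 W, with log2 differences of -0.64 and -0.61. In the retina Map3k12 differed by 0.25 (SE 0.13) at 3 D and by 0.07 (SE 0.13) at 2 W, and Map3k13 by -0.26 (SE 0.14) and 0.01 (SE 0.14). Mapk8 in UON was at 4.41 and 2.45 CPM in naïve pools, 6.35 and 6.19 CPM at 3 D and 9.75 and 9.07 CPM at 2 W. The crush pools were above the naïve ones, but the 2 W difference of 1.5 (SE 0.57) had an adjusted p of 0.520, with 0.0281% of genes called in that comparison and 0% in UON at 3 D. In MON, Mapk8 differed by -0.83 and -1.03.

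Of the NAD+ synthesis genes, none was called after either injury. Nampt changed least, with log2 differences between -0.36 and 0.14 in all 15 comparisons. Nmnat2 lay below naïve in 13 of 15. In the retina it was at 25.2 and 29.4 CPM in naïve pools, 21.1 and 15.9 CPM at 3 D and 16.3 and 19.5 CPM at 2 W after crush. The crush pools were below both naïve pools, by -0.55 (SE 0.22) and -0.65 (SE 0.22) on the log2 scale, with an adjusted p of 0.443 or more in all retina comparisons. Nmnat1 ranged from -0.48 to 0.85 and Nmnat3 from -1.06 to 0.97. The lowest value of Nmnat3 was in UON at 3 D of glaucoma, where its pools were at 4.14 and 4.34 CPM against 8.09 and 10.1 CPM in naïve UON (-1.06, SE 0.37, adjusted p = 1, unadjusted p = 0.0227, edgeR).

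**Figure D4:**
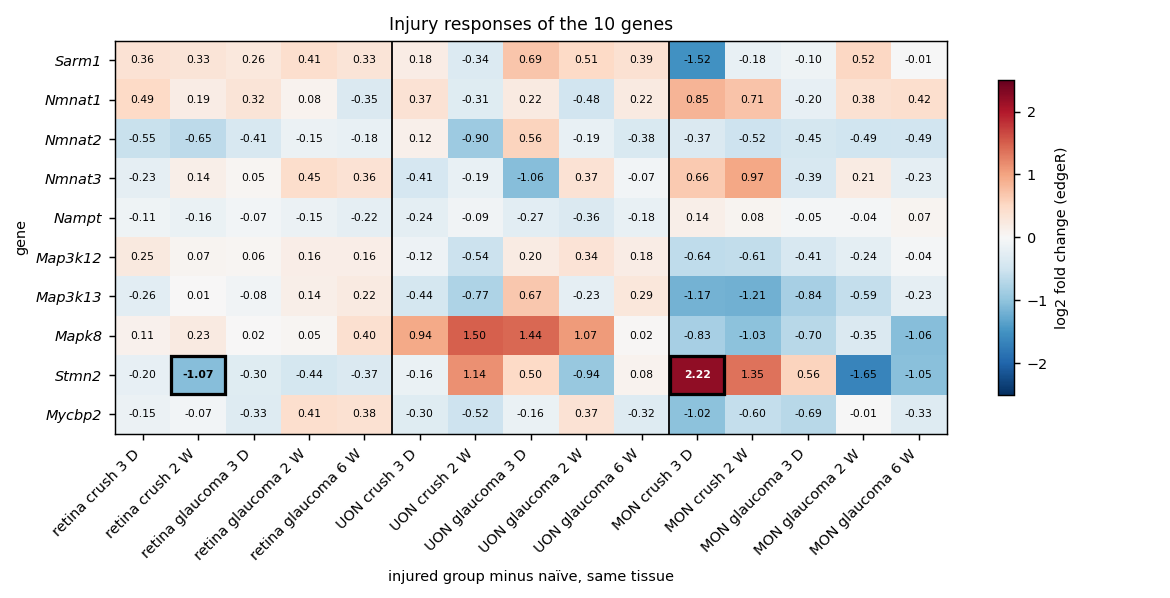
Log2 fold change against naïve of the same tissue (edgeR) for 10 genes in 15 comparisons, red higher and blue lower after injury, with the value printed in each cell. The 2 boxed cells passed the test, Stmn2 in retina at 2 W (-1.07) and in MON at 3 D (2.22) after crush.

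In glaucoma none of the 90 tests of the 10 genes passed by edgeR or DESeq2, 10 had an unadjusted p below 0.05, and the lowest edgeR adjusted p was 0.500. Over all genes edgeR called 0.00429%, 0% and 0.00858% in the retina at 3 D, 2 W and 6 W, and 0% at every time in UON and MON. DESeq2 called more of all genes at these times. Its counts were 160, 99 and 114 in the retina, 129, 76 and 33 in UON, and 443, 511 and 67 in MON. All genes with an edgeR unadjusted p below 0.05 ran from 451 of 22438 (UON, 6 W) to 2017 of 22960 (MON, 2 W). In the retina Stmn2 was at 64.3 and 72.2 CPM at 3 D, 67.6 and 58.5 CPM at 2 W and 62.4 and 67.5 CPM at 6 W. All 6 glaucoma pools were below both naïve pools (88.6 and 79.4 CPM), with log2 differences of -0.30, -0.44 and -0.37 (SE 0.15 each). The summed RGC markers of these pools were also below naïve retina (1433 and 1324 CPM). They were at 679 and 1181 CPM at 3 D, 1125 and 1092 CPM at 2 W and 1041 and 1112 CPM at 6 W. Their part in the Stmn2 values was not tested. Mycbp2 in the retina was at 106 and 109 CPM at 3 D, 165 and 200 CPM at 2 W and 184 and 166 CPM at 6 W, against 124 and 146 CPM in naïve pools. It lay below naïve at 3 D and above it later, with no call. In MON the 2 pools of the 3 D group differed most for Stmn2, with 27.0 CPM in the female and 2.21 CPM in the male pool. The same female pool had a summed dividing-cell level of 173 CPM against 24.6 CPM in the male pool. Sarm1 in MON spanned 15.2 to 39.0 CPM over the 6 glaucoma pools, a range that included both naïve pools.

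Crush and glaucoma were compared directly at matched times, and none of the 60 tests passed in edgeR (9 with an unadjusted p below 0.05), while DESeq2 called 3. The DESeq2 calls were Sarm1 in MON at 3 D and Stmn2 in MON and UON at 2 W. There DESeq2 called 573, 368 and 538 of all genes. All genes with an edgeR unadjusted p below 0.05 ran from 255 of 23927 (UON, 3 D) to 2562 of 24738 (MON, 3 D). By edgeR the share of all genes called at 3 D and 2 W was 0.0081% and 0.113% in the retina, 0% and 0.0418% in UON, and 0.0162% and 0.0485% in MON. Stmn2 at 2 W was lower after crush than in glaucoma in the retina (39.5 and 42.9 against 67.6 and 58.5 CPM, log2 difference -0.62, SE 0.15, edgeR adjusted p = 0.272) without passing. In MON it lay the other way (20.8 and 13.3 against 3.49 and 1.67 CPM, 2.84, SE 0.82, adjusted p = 0.414). In UON the difference of 2.18 (SE 0.70, adjusted p = 0.404) rested on unequal pools, 5.91 and 22.6 CPM after crush. It was 1.05 without the male crush pool and 2.97 without the female one. Sarm1 in MON at 3 D was at 10.5 and 5.37 CPM after crush and 15.2 and 30.4 CPM in glaucoma (-1.54, SE 0.44, adjusted p = 0.357). This difference was -2.16 without the female glaucoma pool and -0.67 without the male one.

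The late and early times of each model were compared too, and none of these 60 tests passed (5 with an unadjusted p below 0.05; DESeq2 called 1). The DESeq2 call was Sarm1 in MON between 3 D and 2 W after crush, where DESeq2 called 1060 of all genes. All genes with an edgeR unadjusted p below 0.05 ran from 1018 of 22438 (UON, glaucoma) to 2493 of 19988 (MON, crush). By edgeR the share of all genes called was 0.0485% in retina, 0.00468% in UON and 0.075% in MON between 3 D and 2 W after crush, and 0.0129%, 0% and 0% between 3 D and 6 W of glaucoma. The lowest edgeR adjusted p was that of Stmn2 in the retina between 3 D and 2 W after crush (-0.87, SE 0.14, adjusted p = 0.147), followed by Sarm1 in MON over the same interval (1.34, SE 0.33, adjusted p = 0.167).

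Whether tissues responded differently was tested as the difference of their responses. None of these 150 tests passed in edgeR (25 with an unadjusted p below 0.05), while DESeq2 called 5. For MON minus retina after crush these were Sarm1 and Stmn2 at 3 D, where DESeq2 called 1505 of all genes. At 2 W they were Stmn2 and Map3k13, where it called 1108. The other was Mapk8 in UON minus MON at 2 W after crush, where DESeq2 called 624. All genes with an edgeR unadjusted p below 0.05 ran from 799 of 25807 (UON minus MON, 6 W of glaucoma) to 3757 of 25398 (MON minus retina, 3 D after crush). In edgeR the crush response of MON minus that of the retina came nearest, with 0.882% of all genes called at 3 D and 0.622% at 2 W. The shares were 0.0115% and 0.0689% for UON minus retina, 0.012% and 0% for UON minus MON, and 0% in every glaucoma comparison of tissues. Stmn2 lay below naïve in the retina and above it in MON, but neither the small retina change at 3 D nor the MON change at 2 W was called. The difference of the responses was 2.42 at 3 D (SE 0.50, edgeR adjusted p = 0.0604) and 2.40 at 2 W (SE 0.50, adjusted p = 0.0719). For Sarm1 the difference at 3 D was -1.89 (SE 0.37, adjusted p = 0.0511). Leaving out single libraries gave a range of -2.27 to -1.55 for Sarm1. For Stmn2 it gave 1.92 to 2.96 at 3 D and 1.89 to 2.94 at 2 W. Mapk8 at 2 W differed by 2.57 between the UON and MON responses to crush (SE 0.77, edgeR adjusted p = 0.258).

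The other genes of these pathways were 64 genes in 8 lists. Over all 23685 genes tested in naïve tissue, 4301 were called higher and 3204 lower in UON than in retina, and 3960 higher and 2572 lower in MON than in retina. The lists are given as counts beside these, with their median log2 difference and no test. Of 11 genes listed under NAD+ synthesis, 4 were called higher and 1 lower in UON than in retina, and the list's median was 1.08. Higher were Qprt of de novo synthesis (log2 fold change 4.38) and Naprt of the nicotinic acid route (3.69). So was Nadk (2.65), an NAD+ kinase that uses NAD+ and does not make it. Of 8 NAD+ consumers, 3 were called higher and 2 lower, led by the methyltransferase Nnmt (6.65) and the NAD+ glycohydrolase Cd38 (5.68), while Bst1, a relative of Cd38, was lower (-2.35), and the median was -0.25. Of 9 axon self-destruction genes, 7 were called higher and none lower in UON and the same counts held in MON, among them the calpain Capn2 (4.39 in UON, 3.77 in MON), with medians of 2.73 and 2.10. Of 13 other DLK and JNK route kinases and scaffolds, 5 were called higher in UON and 6 in MON than in retina and none lower, with medians of 0.57 and 0.56. The median over all genes was -0.17 for UON minus retina and 0.00 for MON minus retina. Of 14 known targets of DLK and JNK, 3 were called higher in UON than in retina, among them Ecel1 (6.74) and the AP-1 subunit Jun (2.92), and the growth cone gene Gap43 was lower (-1.41). Of 3 MYCBP2 partners the F-box protein gene Fbxo45 was lower in UON (-1.36), and of 3 regulators of the members the RNA-binding protein gene Tardbp (-1.12) and the palmitoyltransferase gene Zdhhc17 (-1.40) were. All 3 other stathmins were called lower in UON than in MON, led by Stmn1 (-2.88).

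After injury, calls among these genes were confined to crush and to 9 named genes. No gene of the NAD+ synthesis, self-destruction, MYCBP2 partner or regulator lists was called in any of the 15 comparisons with naïve. This does not show that they stayed unchanged. Of 9 self-destruction genes, 5 had an edgeR unadjusted p below 0.05 in MON at 2 W after crush, against 3204 of all 19988 genes. In retina at 2 W after crush 3 had, against 2037 of all 22671 genes. The list's lowest log2 difference there was -3.73. In the other comparisons with naïve 0 to 3 had. Mapk8ip2 (JIP2), a scaffold that holds JNK pathway kinases together, fell in both nerve regions. Other markers were lower in the same libraries at 2 W, and their part in the fall was not tested: the RGC sum went from 222 and 283 to 122 and 97.7 CPM in UON and from 589 and 480 to 148 and 102 CPM in MON, and the MON oligodendrocyte sum from 165311 and 120854 to 44275 and 57562 CPM. In UON it was at 210 and 322 CPM in naïve pools and 7.73 and 6.68 CPM at 2 W after crush (log2 fold change -5.21, SE 0.44, edgeR adjusted p = 0.0331). In MON it was at 138 and 71.3 CPM in naïve pools, 48.2 and 23.9 CPM at 3 D (-1.44, SE 0.29, adjusted p = 0.0385) and 7.48 and 5.95 CPM at 2 W (-3.78, SE 0.32, adjusted p = 0.00884). The 2 W pools were far below all naïve nerve pools. Left-out libraries ended some of these calls while the fold change kept its size: in UON it was -5.29 without the female 2 W pool (adjusted p = 0.0562), and the call held without the male one that stood apart. In MON the 2 W call was lost without the female naïve pool (-3.72, adjusted p = 0.0673), and the 3 D call without either naïve pool or the male 3 D pool (-1.52 to -1.25). In the retina Mapk8ip2 was at 139 and 123 CPM in naïve and 123 and 98.8 CPM in 2 W pools, and the nerve's response differed from the retina's (UON -4.92, adjusted p = 0.00566; MON -3.60, adjusted p = 0.00620).

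Of 14 genes known as targets of DLK and JNK, Atf3 and Gadd45a rose in crushed MON, Ecel1, Sox11 and Sprr1a rose in crushed retina, none fell and none was called in UON. In MON the stress transcription factor Atf3 was at 18.0 and 15 CPM in naïve pools, 42.7 and 49.5 CPM at 3 D (1.59, SE 0.28, edgeR adjusted p = 0.0273) and 102 and 70.0 CPM at 2 W (2.47, SE 0.29, adjusted p = 0.0153). The growth arrest gene Gadd45a rose there at 3 D (1.34, SE 0.29, adjusted p = 0.0498). The Atf3 calls were lost at both times without either naïve pool, and at 3 D also without the male 3 D pool (1.31, adjusted p = 0.117), as was that of Gadd45a (1.01 to 1.69 without each of these 3 pools). In the retina the endopeptidase Ecel1 was at 0.50 and 0.69 CPM in naïve pools, 38.4 and 73.9 CPM at 3 D (6.52, SE 0.34, adjusted p = 0.0115) and 30.4 and 26.5 CPM at 2 W (5.57, SE 0.33, adjusted p = 0.00381). The transcription factor Sox11 rose at 3 D from 2.02 and 3.00 CPM to 15 and 26.0 CPM (3.01, SE 0.24, adjusted p = 0.0385). Sprr1a, a protein of regrowing axons, had no counts in either naïve retina pool and 15.9 and 22.3 CPM at 3 D, which is at least 296-fold higher against a floor of 3 counts per library. At 2 W it was at 4.92 and 5.94 CPM, at least 84.1-fold higher. The retina calls of Ecel1, Sox11 and Sprr1a held without each of the 6 libraries. In the retina at 3 D of glaucoma the female and male pools were unlike each other, with 52.0 and 1.8 CPM for Ecel1, 15.2 and 1.73 CPM for Sprr1a and 18.8 and 4.82 CPM for Sox11, and none was called.

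Of the 8 NAD+ consumers, Cd38 and its relative Bst1 rose in crushed MON and no other was called. Cd38 was at 14.6 and 11.7 CPM in naïve pools, 36.2 and 94.3 CPM at 3 D (log2 fold change 2.2, SE 0.41, edgeR adjusted p = 0.0310) and 36.5 and 79.3 CPM at 2 W (2.07, SE 0.41, adjusted p = 0.0471). Bst1 was at 0.97 and 1.88 CPM in naïve pools and 10.4 and 17.3 CPM at 3 D (3.38, SE 0.60, adjusted p = 0.0272). All crush pools of both genes were above the naïve ones, yet the calls rested on them closely. Those of Cd38 were lost without the female (2.99 at 3 D, 2.86 at 2 W) or the male naïve pool (1.53 and 1.43), and that of Bst1 without either naïve pool or the male 3 D pool (2.92 to 3.94). The dividing-cell and microglia and macrophage sums given above for Stmn2 moved in the same libraries, and their part in these rises was not tested. Among the stathmins, Stmn3 fell in the retina beside Stmn2, from 319 and 295 CPM to 165 and 146 CPM at 2 W (-1.03, SE 0.11, adjusted p = 0.0234). That call was lost without the male 2 W pool (-0.99) or the female naïve pool (-0.98).

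**Figure D5:**
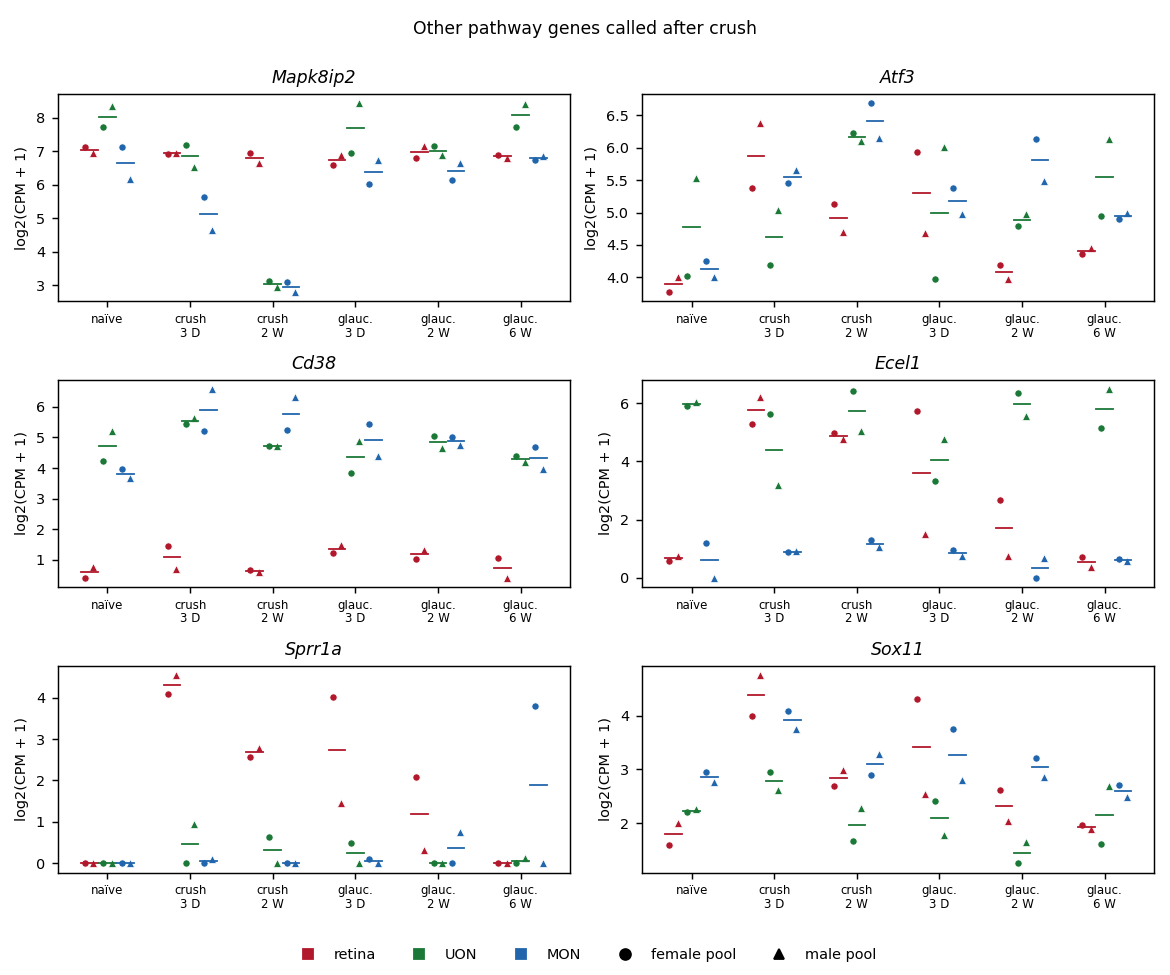
Level of 6 further pathway genes in all 36 libraries as log2(CPM + 1), by treatment and time, with red for retina, green for UON, blue for MON, circles for female and triangles for male pools, and short bars for group means. Mapk8ip2 drops in both nerve regions at 2 W after crush, Atf3 and Cd38 rise in MON, and Ecel1, Sprr1a and Sox11 rise in the retina.

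Because JNK acts through AP-1 factors, promoters were searched for the AP-1 motif TGANTCA and the CRE motif TGACGTCA on both strands, in the 250 bases before each transcript start (RefSeq, GRCm38.p6). Windows were found for 8 of the 10 genes (11 windows), not for Stmn2 and Mycbp2, and none held either motif, which stood in 6.75% and 1.55% of all 32851 windows. Of the 64 other pathway genes 50 had a window, and AP-1 matches stood in those of 5 (Capn2, Ddit3, Map2k7, Map3k10 and Sprr1a). The Sprr1a window, chr3:92485882-92486131 on the minus strand, is shown because Sprr1a went from no counts to a called level in crushed retina and because its window held 2 matches, in capitals, which end 139 and 109 bases before the start site. A match is a run of letters and not a shown binding site.
Sprr1a: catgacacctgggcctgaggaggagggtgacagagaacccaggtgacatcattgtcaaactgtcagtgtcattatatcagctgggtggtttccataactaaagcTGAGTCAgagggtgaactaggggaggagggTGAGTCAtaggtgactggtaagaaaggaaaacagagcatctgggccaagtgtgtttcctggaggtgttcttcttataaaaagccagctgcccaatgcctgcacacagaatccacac

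Transcript tables showed how the counts of the 10 genes were made up. For Nmnat3 a retained-intron transcript took 20.3 to 72.2% of the gene's counts in the 12 retina libraries (median 43.0%), against 0 to 12.2% in UON and 0 to 20.0% in MON. The retina range lay above both nerve ranges. Retained-intron transcripts of Mapk8 took 41.0% of its pooled counts in retina, 30.0% in UON and 38.6% in MON. For Sarm1 they took 10.7% in retina, 32.7% in UON and 6.96% in MON. A single transcript of Map3k12 led in UON (67.0% of pooled counts) and MON (57.1%), while in retina it took 41.3% beside 42.7% for another. Level per length depends on this assignment of reads to transcripts. For Mycbp2, retina at 3 D after crush had a mean of 12.9 FPKM against 20.4 FPKM in naïve retina, while its CPM was 121 against 135.

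Within the 12 retina libraries the genes most like each member were named by Pearson r of log2 CPM over 16571 genes, as a description of libraries that share depth and treatment. The r given is the highest of all genes compared, and the median r over them lay between -0.07 and 0.04. How high the top r would lie among unrelated genes was not tested. Mycbp2 was most like the large ubiquitin ligase gene Birc6 (r = 0.978), followed by Herc1 and Dync2h1. Sarm1 was most like Hdac10 (r = 0.948), Stmn2 most like Banf1 and Ywhah (both r = 0.943), Mapk8 most like Wasf3 (r = 0.938) and Nmnat2 most like Clstn2 (r = 0.928). Nmnat1 was most like Wnt10a (r = 0.927), Map3k13 most like Znfx1 (r = 0.922), Nmnat3 most like Malt1 (r = 0.892) and Map3k12 most like Pcare (r = 0.889). For Nampt, whose level was highest in UON, the 12 UON libraries gave Isl2 (r = 0.911).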

How the data were processed

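RNA of 24 mice was sequenced as 36 libraries (18 groups of 2 sex pools) from a total RNA extract and an ultra-low-input kit. The authors aligned reads to GRCm38 with HISAT2 2.2.1 and quantified Gencode transcripts with StringTie 1.3.0. The deposited values are estimated counts per gene and transcript, made by the authors from StringTie coverage (about 75 bases of coverage per count) and not normalized, and the authors' FPKM and TPM per gene, in which slightly negative values were read as 0. Strand is not given in the sources used here.

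Estimated counts, already whole numbers, were scaled by TMM and filtered by filterByExpr (minimum count 10, minimum total 15). Group and sex were then fitted in edgeR 4.0.16 (R 4.3.3) with quasi-likelihood F tests, and p-values were adjusted across the tested genes by the Benjamini-Hochberg method. Calls needed an adjusted p below 0.05 and a log2 fold change beyond 1. Naïve tissues formed 1 fit, and each tissue and model formed its own with the naïve libraries. Differences in response were fitted on both tissues. Printed CPM used TMM over all 36 libraries, and FPKM was used only to compare genes with each other. Pools have no numbers in the labels and 2 per group, so p-values measure the spread between pools. Alternatives were DESeq2 1.42.0, limma 3.58.1 on log2(FPKM + 1), other scaling, no filter, no sex term, all libraries in one fit, the mouse pool as a block, and each library left out.

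The 10 genes, the 8 lists of 64 other pathway genes and the 13 marker lists were chosen with earlier results of these data known. All 10 genes were described, and of each list up to 3 called genes per tissue and model, those with the greatest log2 fold change. Counts of list members stand beside no set test. The tests were tried on simulated data first, with 100 genes changed at each size, all picked from genes above a set mean level. For naïve UON against MON, 27 of 201 calls were false. At 3 D after crush against naïve, 29 of 228 were false in retina and 9 of 171 in MON. A true log2 change of 2 was recovered in 78%, 99% and 64% of genes in these comparisons, and of 3 in 96%, 100% and 98%. No injury comparison in UON and none in glaucoma was simulated, so these rates do not cover them or genes of lower level. Counts of the 10 genes were at least 24 in every library.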

Additional observations from a re-analysis of the deposited data

Results flagged for a closer look

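In 4 cases the crush response of another pathway gene differed between tissues by an edgeR interaction test. Mapk8ip2 at 2 W responded lower in MON than in retina by -3.60 (adjusted p = 0.00620) and lower in UON than in retina by -4.92 (adjusted p = 0.00566) on the log2 scale. Ecel1 at 3 D responded lower in MON than in retina by -6.29 (adjusted p = 0.0445). Stmn4, a stathmin, at 3 D responded lower in MON than in retina by -2.36 (adjusted p = 0.0483). Without single libraries, a setting added after seeing the data, both Mapk8ip2 differences were called in 12 of 12 fits (-3.82 to -3.35 and -5.31 to -4.46), that of Stmn4 in 4 of 12 (-2.69 to -1.91) and that of Ecel1 in 6 of 12. The Ecel1 difference turned to 1.59 (adjusted p = 0.882) without the female naïve MON pool. The male naïve MON pool held no Ecel1 count. No difference of the 10 genes passed the test.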

How the results depend on the processing

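None of the members' results called in some setting changed direction in another. Counts of calls among the 10 genes moved as follows. With DESeq2 they were 3 in MON after crush (1 in the main test), 3 between crush and glaucoma (0), 1 between late and early times (0), 2 between naïve UON and MON (1) and 5 among differences in response (0). Without a filter on low counts they were 3 in MON after crush, 2 between crush and glaucoma, 2 between naïve UON and MON and 3 among differences in response. With all 36 libraries in one fit they were 3 in MON after crush, 2 between naïve UON and MON and 0 in retina after crush (1). Without a sex term they were 2 in MON after crush and 2 between naïve UON and MON. Limma on log2(FPKM + 1) gave 0 in MON and 0 in retina after crush. Median-of-ratios scaling moved no count by over 1.5 times and shifted their median log2 fold change by at most 0.113, in 1 comparison of the UON and MON responses.

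Leaving out 1 library at a time gave 0 to 3 calls in MON after crush, 0 to 1 in retina after crush, 0 to 0 in UON after crush and in each tissue in glaucoma, 0 to 2 between crush and glaucoma, 0 to 0 between late and early times, 2 to 5 between naïve MON and retina, 6 to 6 between naïve UON and retina and 1 to 2 between naïve UON and MON. For differences in response, where leaving out libraries was chosen after seeing the data, it gave 0 to 3. With the mouse pool as a replicate block, differences in response gave 0 calls, as without it.

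The cause of these changes was not tested. With 2 pools per group and residual degrees of freedom shared over few libraries, a difference of the size of Sarm1 in crushed MON lay on the threshold. A lone pool was assumed to vary like the other groups, and a left-out library changed the variance used in every comparison of its fit. Calls gained in such fits are thus no result on a gene alone. For levels per length on the log2 scale, a pseudocount of 0.1 in place of 1 moved 17 of 30 naïve differences by more than the spread between pools and TPM moved 11, none in direction.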
